A study of Sus scrofa with 24 samples.

Results

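The epidermal growth factor (EGF) family was followed through adipogenic culture of pig preadipocytes as 9 genes, 6 ligands and 3 receptors, of the 25462 genes in the expression table. The genes were chosen from earlier results of the same libraries, in which EREG stood out between days 2 and 4 in back fat cells, and the rest of the family was added by name. All values of the 9 genes between days 2 and 4 in back fat cells, and of the depot difference over that interval, are therefore given as a description without a test. Tests in the other comparisons were run across all 16135 genes that passed a filter on low values, and, since the members were chosen with results known, they are not independent evidence. 8 of the 9 members passed the filter, and TGFA did not. BTC passed it only through its BF-8d libraries.

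Primary preadipocytes, the precursors of fat cells, came from the back subcutaneous fat (BF) and the longissimus dorsi intramuscular fat (IMF) of 6-day-old Yorkshire piglets. Both depots were taken on days 0, 2, 4 and 8 of culture with 3 replicates each, which made 8 groups (BF-0d to BF-8d and IMF-0d to IMF-8d) and 24 libraries. The labels name no genetic change, and both depots received the same media: IBMX (which raises cyclic AMP by blocking its breakdown), dexamethasone (a glucocorticoid) and insulin up to day 2, insulin alone up to day 4, and growth medium after that. Day 0 cells had not been induced, and no uninduced cells of later days were among the libraries, so days in culture and medium cannot be told apart. The labels do not tie a replicate number to a piglet, so p-values measure only the spread between these libraries, which may be technical.

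Ligands of the EGF family are made as membrane-bound precursors and are released when a protease of the ADAM type cuts them at the cell surface. The freed ligands bind receptors of the ERBB family, which pair up, phosphorylate each other and switch on the Ras-ERK and PI3K cascades. Epiregulin (EREG), amphiregulin (AREG), heparin-binding EGF-like growth factor (HBEGF), transforming growth factor alpha (TGFA) and betacellulin (BTC) bind EGFR, and neuregulin 1 (NRG1) binds ERBB3. ERBB2 has no ligand of its own and works as a partner of the other receptors. In fat cell precursors EGF receptor signalling is known mainly as a signal for growth that can hold back the late steps of fat cell formation.

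In the RefSeq annotation of Sscrofa11.1, the build the authors aligned to, 4 ligand genes lay side by side on chromosome 8. EPGN (epigen, a further EGFR ligand) came first, followed by EREG at chr8:70351316-70372530, AREG at chr8:70417935-70428106 and BTC at chr8:70645721-70697538. EREG and AREG ran on the plus strand with 45404 bases between them, and BTC ran on the minus strand 217614 bases beyond AREG. The other members lay apart from this cluster: HBEGF at chr2:142102455-142115192, TGFA at chr3:71948232-72054257, NRG1 at chr15:52625550-53688003, EGFR at chr9:139302410-139474632, ERBB2 at chr12:22591621-22621384 and ERBB3 at chr5:21474218-21495040.

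The 250 bases before the annotated start of EREG, AREG and HBEGF are shown because the induction medium held IBMX, which is known to raise cyclic AMP, and the response element of cyclic AMP has a known sequence. They are written 5′ to 3′ on the strand of the gene, from Sscrofa11.1, with each match to a searched motif in capitals. EREG lies at chr8:70351066-70351315 on the plus strand, AREG at chr8:70417685-70417934 on the plus strand and HBEGF at chr2:142115193-142115442 on the minus strand.
EREG: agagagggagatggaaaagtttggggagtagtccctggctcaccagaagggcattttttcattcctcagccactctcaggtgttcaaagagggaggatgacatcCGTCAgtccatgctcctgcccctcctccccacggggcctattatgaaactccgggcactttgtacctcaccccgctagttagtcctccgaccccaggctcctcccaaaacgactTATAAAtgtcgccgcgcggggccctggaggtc
AREG: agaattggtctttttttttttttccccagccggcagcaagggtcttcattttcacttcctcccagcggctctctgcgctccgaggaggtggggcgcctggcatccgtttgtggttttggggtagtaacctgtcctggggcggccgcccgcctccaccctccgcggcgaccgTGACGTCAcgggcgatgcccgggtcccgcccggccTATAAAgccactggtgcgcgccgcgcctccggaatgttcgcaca
HBEGF: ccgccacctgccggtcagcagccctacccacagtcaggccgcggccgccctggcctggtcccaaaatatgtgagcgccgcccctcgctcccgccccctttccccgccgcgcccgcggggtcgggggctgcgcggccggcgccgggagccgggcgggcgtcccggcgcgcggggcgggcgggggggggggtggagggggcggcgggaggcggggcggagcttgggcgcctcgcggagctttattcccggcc

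The motifs searched on both strands were the cyclic AMP response element TGACGTCA, its shorter form TGACG (reverse complement CGTCA, which the full element also holds), the AP-1 site TGAGTCA (reverse complement TGACTCA) and the TATA box TATAAA (reverse complement TTTATA). AREG held 1 full cyclic AMP response element, 79 to 72 bases before the start, and 1 TATAAA. EREG held 1 shorter form as CGTCA, 146 to 142 bases before the start, and 1 TATAAA, and no full element. HBEGF held none of the 4 motifs, and its window was 81.6% G and C against 56.8% for EREG and 64.0% for AREG. Among 19556 protein-coding gene windows of the same length, 1.7% held TGACGTCA, 19.6% held TGACG, 2.9% held TGAGTCA and 9.77% held TATAAA in either direction. These matches are descriptions of the sequence, and whether any of them is used in these cells was not tested.

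The values were FPKM (read fragments divided by transcript length and library size), 1 per gene and library, so that levels of different genes can be set side by side. Summed FPKM ranged from 307967 to 385768 per library, and these values do not hold the read depth behind them. Replicates correlated at 0.962 to 0.994 over log2(FPKM + 1), with the BF-2d and BF-4d groups the most scattered. Changes are given as differences of log2(FPKM + 1) with their standard error (SE), a scale that understates the change of low genes. A gene was called where limma's adjusted p was below 0.01 and the change at least 1 on that scale. The cells carried stromal markers (PDGFRA, 50.8 to 433 FPKM), while defining markers of mature fat cells stayed near 0 up to day 8 (ADIPOQ at most 0.23 FPKM, PLIN1 at most 0.0773, LEP at most 0.0313).

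EREG and AREG were by far the most variable members. EREG was close to absent before induction in both depots and stood at 156 FPKM or more in all BF libraries from day 4. It was read at 0.319, 0.185 and 0.291 FPKM in the BF-0d libraries. On day 2 the BF libraries held 33.3, 28.6 and 4.35 FPKM, and on day 4 they held 156, 201 and 400 FPKM. On day 8 they held 233, 489 and 426 FPKM. The mean thus went from 0.265 ± 0.0709 (SD, n = 3) to 383 ± 133 FPKM, a ratio of 1444 between the means of BF-8d and BF-0d, with the libraries of days 4 and 8 overlapping.

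In IMF cells the same transcript stayed under 1 FPKM through day 4. The IMF-0d libraries held 0.151, 0.188 and 0.0828 FPKM, the IMF-2d libraries 0.204, 0.665 and 0.191, and the IMF-4d libraries 0.207, 0.181 and 0.211. On day 8 all 3 IMF libraries rose, to 17.7, 30.2 and 18.0 FPKM. That level overlapped the range of BF-2d and lay below every BF-4d and BF-8d library. Ordered by mean, EREG was highest in BF-8d, then BF-4d, BF-2d, IMF-8d, IMF-2d, BF-0d, IMF-4d and IMF-0d. Only the steps from BF-4d to BF-2d and from IMF-8d to IMF-2d in that order were free of overlap between libraries.

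AREG, a ligand that binds EGFR with lower affinity than EGF, followed a similar course from a higher starting level. The BF-0d libraries held 2.01, 1.57 and 1.78 FPKM, the BF-2d libraries 128, 147 and 18.2, the BF-4d libraries 325, 370.0 and 496, and the BF-8d libraries 193, 278 and 249.9 FPKM. Its BF mean was highest on day 4, at 397 ± 89.0 FPKM (SD, n = 3), and every BF-8d library lay below every BF-4d library. In IMF the day 0 libraries held 5.88, 5.29 and 5.24 FPKM, above all 3 BF-0d libraries. The IMF-2d libraries held 3.34, 6.86 and 2.64 FPKM and the IMF-4d libraries 2.03, 2.37 and 2.08. On day 8 they held 80.6, 70.9 and 97.6 FPKM. Ordered by mean, AREG was highest in BF-4d, then BF-8d, BF-2d, IMF-8d, IMF-0d, IMF-2d, IMF-4d and BF-0d, and within this order BF-2d overlapped IMF-8d and IMF-0d overlapped IMF-2d.

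**Figure D1:**
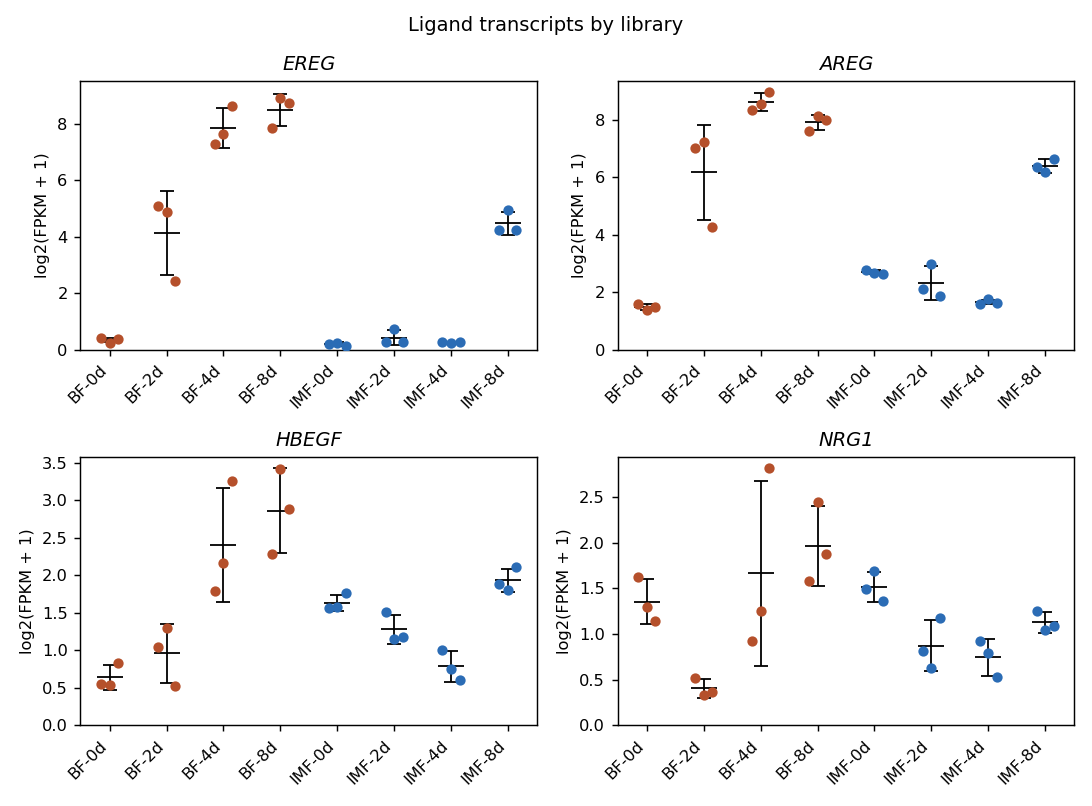
Expression of EREG, AREG, HBEGF and NRG1 as log2(FPKM + 1) on the vertical axis in each of the 8 groups on the horizontal axis; points are libraries (BF brown, IMF blue) and bars are the mean ± SD of 3 libraries. EREG and AREG rise in BF from day 2 and in IMF on day 8, with 1 of the 3 BF-2d libraries well below the others.

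1 library of BF-2d stood apart in these genes. Replicate 3 held 4.35 FPKM of EREG and 18.2 FPKM of AREG, where the lowest of the other BF-2d libraries held 28.6 and 128. It also held the lowest BF-2d level of HBEGF, and its LPL, lipoprotein lipase, a gene of fat cell differentiation, stood at 6.71 FPKM against 82.1 and 77.7 in the other BF-2d libraries. Other adipocyte markers were not low in it: PPARG stood at 5.75 FPKM against 1.27 in both others, and CEBPA at 10.0 against 9.71 and 8.37. BF-4d replicate 3 stood apart in the other direction, with the highest BF-4d value of EREG, AREG, HBEGF and NRG1 and with 17.1 FPKM of CD14, a co-receptor for lipopolysaccharide that marks monocytes. Of the other immune markers, PTPRC and CSF1R stayed near 0 in all 24 libraries, at most 0.00835 and 0.0581 FPKM. CD68 ranged from 0.609 to 2.47 FPKM over the 24 libraries, with 1.59 in BF-4d replicate 3 against 0.963 and 1.04 in the other BF-4d libraries, and AIF1 reached 1.27 FPKM, in IMF-4d. Their part in the ligand levels was not tested. Called changes of the members that rest on these libraries are given with and without them.

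From day 0 to day 2 in BF, 2 of the 8 tested members were called, against 6.59% of all tested genes. EREG rose by 3.80 ± 0.48 (log2, SE; adjusted p = 7.9e-06) and AREG by 4.68 ± 0.48 (adjusted p = 7.31e-07). Without BF-2d replicate 3 the rises were 4.66 for EREG and 5.63 for AREG. In a fit of only the 6 compared libraries, which estimates the spread from them alone, neither passed (adjusted p = 0.0168 for EREG and 0.0129 for AREG). HBEGF, a ligand that also binds heparan sulfate at the cell surface, changed by 0.32 ± 0.29 (adjusted p = 0.444). Markers of other cell types were called over the same interval: DES, an intermediate filament protein of muscle cells (−1.49), PECAM1, an endothelial adhesion molecule (−1.13), and COL1A1 (−1.10) lower, and PDGFRA, a receptor of stromal progenitors (1.86), higher. None of the 4 was called from the compared libraries alone, and their part in the ligand changes was not tested.

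Over the same interval the receptors moved less. ERBB3 was 0.89 ± 0.19 higher in BF-2d than in BF-0d (adjusted p = 0.00149) and ERBB2 changed by −0.53 ± 0.13 (adjusted p = 0.00278), both under the fold threshold. ERBB3 passed that threshold without BF-2d replicate 3, at 1.05. EGFR changed by 0.29 ± 0.15 (adjusted p = 0.168), with overlapping libraries. NRG1 changed by −0.95 ± 0.32 (adjusted p = 0.0275) and passed with a pseudocount of 0.1, at −1.97.

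Between BF-2d and BF-4d, the interval from which the family was chosen, 4 of 8 members were past the thresholds (3.35% of all genes were), which follows from the choice and is no result. The changes were 3.73 ± 0.48 for EREG, 2.45 ± 0.48 for AREG, 1.45 ± 0.29 for HBEGF and 1.26 ± 0.32 for NRG1. Without BF-2d replicate 3 they were 2.87, 1.5, 1.23 and 1.24. Without BF-4d replicate 3 they were 3.34, 2.28, 1.02 and 0.68. EGFR changed by 0.58 ± 0.15, ERBB2 by −0.32 ± 0.13, ERBB3 by −0.28 ± 0.19 and BTC by 0.02 ± 0.12.

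From day 4 to day 8 in BF none of the 8 members was called by limma, against 2.93% of all genes. An unadjusted p below 0.05 was found for ERBB3 and for BTC, of which nothing is read for BTC, since BF-8d had carried it past the filter. EREG changed by 0.65 ± 0.48 (adjusted p = 0.378) and AREG by −0.72 ± 0.48 (adjusted p = 0.325). Without BF-4d replicate 3 the changes were 1.04 for EREG, −0.54 for AREG, 0.88 for HBEGF (adjusted p = 0.0138) and 0.88 for NRG1 (adjusted p = 0.00433, under the fold threshold), where HBEGF had changed by 0.46 and NRG1 by 0.30 with it. In the fit of only the compared libraries 0 of 8 were called and 2 had an unadjusted p below 0.05.

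In IMF cells no member passed the thresholds before the last interval. From day 0 to day 2, 0 of 8 members were called by limma against 0.787% of all genes, and 1 had an unadjusted p below 0.05. From day 2 to day 4, 0 of 8 were called against 0.0372% of all genes, and 0 had an unadjusted p below 0.05. In fits of only the compared libraries the counts were again 0 and 0, with 3 and 4 members at an unadjusted p below 0.05. Levels of some members differed without overlap between libraries, among them NRG1 (−0.64 ± 0.32) and HBEGF (−0.35 ± 0.29) from day 0 to day 2 and AREG (−0.66 ± 0.48) and HBEGF (−0.49 ± 0.29) from day 2 to day 4. The interval from day 2 to day 4 thus held few calls in the whole table of IMF cells, members or not.

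From day 4 to day 8 in IMF, 3 of 8 members were called, all higher, against 7.25% of all genes. EREG rose by 4.22 ± 0.48 (adjusted p = 1.6e-06), AREG by 4.72 ± 0.48 (adjusted p = 4.39e-07) and HBEGF by 1.15 ± 0.29 (adjusted p = 0.00459). All 3 were also called from the compared libraries alone. The rises of EREG and AREG passed without each of the 6 compared libraries in turn, whereas that of HBEGF passed in 2 of 6 such fits. HBEGF stood at 1.01, 0.683 and 0.517 FPKM in IMF-4d and at 2.68, 2.50 and 3.30 FPKM in IMF-8d, with no overlap. EGFR (0.21 ± 0.15), ERBB2 (−0.22 ± 0.13), ERBB3 (0.07 ± 0.19) and NRG1 (0.38 ± 0.32) did not pass. Over the same interval the muscle marker DES changed by −2.24 ± 0.29 (adjusted p = 7.42e-06) and COL1A1 by −1.09 ± 0.27 (adjusted p = 0.00352), both called lower. CD14 was 1.05 ± 0.40 higher in IMF-8d (adjusted p = 0.0474), not called in the fit of all libraries but called from the compared libraries alone, with 6.65 to 8.88 FPKM against 2.66 to 3.72 in IMF-4d. Their part in the ligand rises was not tested.

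**Figure D2:**
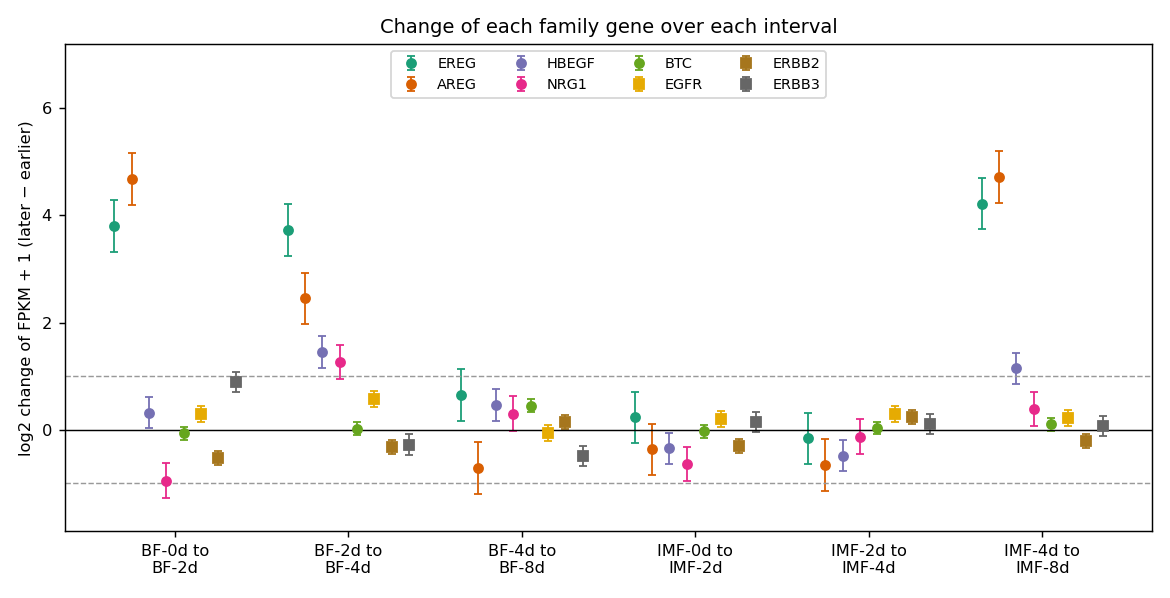
Change of log2(FPKM + 1) over each of the 6 intervals (horizontal axis) for the 8 tested family genes; circles are ligands, squares receptors, bars are standard errors from limma and dashed lines mark a change of 1 in either direction. EREG and AREG lie above 3 from BF-0d to BF-2d and above 4 from IMF-4d to IMF-8d, while every receptor stays within the dashed lines.

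The 8 adipocyte markers did not move as one. Their summed level was 9.16 to 10.9 FPKM in BF-0d, 182 to 318 in BF-4d and 281 to 622 in BF-8d. In IMF it was 2.79 to 3.67 FPKM on day 0, 11.4 to 14.3 on day 4 and 97.2 to 143 on day 8. LPL carried the rises in BF and that from IMF-4d to IMF-8d. The other 7 markers summed to 7.58 to 8.58 FPKM in BF-0d, 3.89 to 10.8 in BF-4d and 4.78 to 10.97 in BF-8d. In IMF these 7 summed to 1.96 to 2.49 FPKM on day 0, 6.33 to 7.88 on day 4 and 2.28 to 3.54 on day 8. They thus shared in the rise from IMF-0d to IMF-4d. LPL reached 611 FPKM and was called higher from BF-0d to BF-2d (3.54 ± 0.58, adjusted p = 0.000138) and from IMF-4d to IMF-8d (4.21 ± 0.58, adjusted p = 1.82e-05). FABP4, a fatty acid carrier, was called lower from BF-0d to BF-2d (−1.15 ± 0.24, adjusted p = 0.00101) and higher from BF-4d to BF-8d (1.34 ± 0.24, adjusted p = 0.00063). CEBPA, an adipogenic transcription factor, was called higher from BF-0d to BF-2d (1.67 ± 0.23, adjusted p = 2.31e-05) and lower from BF-2d to BF-4d (−1.19 ± 0.23, adjusted p = 0.00129) and from IMF-4d to IMF-8d (−1.33 ± 0.23, adjusted p = 0.000193). PPARG, the main regulator of fat cell formation, held 3.11, 2.57 and 3.33 FPKM in BF-0d and 1.28, 0.486 and 1.16 in BF-8d. ADIPOQ, PLIN1 and LEP were at 0 in 17, 16 and 22 of the 24 libraries. The part of the share of cells entering differentiation in the ligand levels was not tested, and in bulk samples fewer expressing cells and less RNA per cell cannot be told apart.

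The depots were compared on each day to ask where the family differed between subcutaneous and intramuscular cells. On day 0, 0 of 8 members were called by limma against 2.58% of all genes, and 2 had an unadjusted p below 0.05. AREG was 1.22 ± 0.48 higher in IMF-0d (adjusted p = 0.104) and HBEGF 0.99 ± 0.29 higher (adjusted p = 0.026), each without overlap. HBEGF held 1.95, 1.97 and 2.38 FPKM in IMF-0d and 0.465, 0.447 and 0.775 FPKM in BF-0d. The AREG difference passed in the fit of only the 6 compared libraries (adjusted p = 0.000136) and without BF-2d replicate 3 (adjusted p = 0.000432), and the HBEGF difference passed with a pseudocount of 0.1 (1.76, adjusted p = 0.00617). Before induction, then, AREG and HBEGF had their higher readings in IMF. Adipocyte markers differed between depots as well, all those called being lower in IMF. PPARG held 0.425, 0.147 and 0.195 FPKM in IMF-0d, a difference of −1.67 on day 0, and FABP4 differed by −1.59 on day 0 and −1.57 on day 8. LPL differed by −3.46 on day 2 and −5.06 on day 4 and CEBPA by −1.42 on day 2. PPARG on day 2 (−1.15) was called in 2 of 6 fits that left out a compared library. Markers of other cell types also differed. DES was called higher in IMF on day 0 (2.72), day 4 (3.61) and day 8 (1.33), with 29.6 to 45.3 FPKM in IMF-0d against 4.50 to 4.88 in BF-0d. On day 2 its difference of 1.25 passed in 2 of 6 fits that left out a compared library and not from the compared libraries alone, and BF-2d replicate 3 (3.22 FPKM) overlapped the IMF-2d libraries (lowest 3.03). The muscle precursor genes MYF5 and MYOD1 were listed at 0 in 24 of 24 libraries. Stromal markers differed in both directions. The collagen COL1A1 was called higher in IMF-4d (2.75) and IMF-8d (1.28), and COL1A2 (1.73) and DCN (1.22) higher in IMF-4d, whereas PDGFRA was called lower in IMF-2d (−1.41) and IMF-4d (−1.24), PDGFRB lower in IMF-4d (−1.01) and LUM lower in IMF-8d (−1.26). PECAM1 was called higher in IMF-8d (1.03). Their part in the depot differences of the ligands was not tested.

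On day 2 EREG and AREG read lower in IMF, while HBEGF still had the higher mean there (1.44 against 0.989 FPKM, difference 0.32 ± 0.29, adjusted p = 0.454). Of the 8 members 2 were called, both lower in IMF, against 4.74% of all genes. EREG differed by −3.72 ± 0.48 (adjusted p = 1.77e-05) and AREG by −3.84 ± 0.48 (adjusted p = 1.27e-05). Without BF-2d replicate 3 the differences were −4.58 and −4.79, and that of HBEGF was 0.10. In the fit of only the compared libraries neither EREG nor AREG passed (adjusted p = 0.0361 and 0.0462).

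On day 4 the depots were farthest apart. 3 of 8 members were called, all lower in IMF, against 11.3% of all genes. EREG differed by −7.60 ± 0.48 (adjusted p = 6.04e-10), AREG by −6.96 ± 0.48 (adjusted p = 1.72e-09) and HBEGF by −1.62 ± 0.29 (adjusted p = 0.000157). As ratios of group means, BF-4d exceeded IMF-4d 1262 times for EREG, 184 times for AREG and 6.55 times for HBEGF. Without BF-4d replicate 3 the differences were −7.21, −6.78 and −1.19, and all 3 still passed. From the 6 compared libraries alone EREG and AREG passed and HBEGF did not (adjusted p = 0.0148). ERBB2 was 0.68 ± 0.13 higher in IMF-4d (adjusted p = 0.000196), under the fold threshold, with libraries of 5.92, 6.85 and 5.31 FPKM against 3.72, 3.23 and 3.16 in BF-4d.

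On day 8 the gap had narrowed for both EREG and AREG, and whether it narrowed more for either gene was not tested. 1 of 8 members was called, EREG, which differed by −4.04 ± 0.48, lower in IMF (adjusted p = 2.89e-06), against 6.96% of all genes. AREG differed by −1.52 ± 0.48 (adjusted p = 0.0177), and its IMF-8d libraries all lay below the BF-8d libraries. That difference passed from the 6 compared libraries alone (adjusted p = 0.000501) and without BF-2d replicate 3 (adjusted p = 1.82e-05). The ratio of means between BF-8d and IMF-8d was 17.4 for EREG and 2.89 for AREG, against 1262 and 184 on day 4. HBEGF differed by −0.93 ± 0.29 (adjusted p = 0.0168) and NRG1 by −0.84 ± 0.32 (adjusted p = 0.0444), both lower in IMF without overlap.

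The difference in change between depots was tested as an interaction, the change in IMF minus that in BF. From day 0 to day 2, 2 of 8 members were called against 2.45% of all genes: EREG by −3.57 ± 0.68 (adjusted p = 0.00249) and AREG by −5.06 ± 0.68 (adjusted p = 0.000212). Without BF-2d replicate 3 the values were −4.43 and −6.01. From the compared libraries alone the AREG value passed and that of EREG did not (adjusted p = 0.019). From day 2 to day 4, the interval used for the choice, 3 of 8 members were past the thresholds (3.06% of all genes were), from which nothing is read. The values were −3.89 ± 0.68 for EREG, −3.11 ± 0.68 for AREG and −1.94 ± 0.41 for HBEGF. Without BF-2d replicate 3 these were −3.03, −2.17 and −1.72, and without BF-4d replicate 3 they were −3.49, −2.94 and −1.51. From day 4 to day 8, 2 of 8 members were called, both in the positive direction, against 6.39% of all genes. EREG stood at 3.57 ± 0.68 (adjusted p = 0.000996) and AREG at 5.44 ± 0.68 (adjusted p = 1.92e-05), and both passed from the compared libraries alone. Without BF-4d replicate 3 they stood at 3.18 and 5.27 and passed.

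EREG and AREG together made up nearly all of the measured ligand transcripts in BF from day 2 and in IMF on day 8. Their share of the summed FPKM of the 6 ligands was 46.7% to 50.5% in the BF-0d libraries and 56.4% to 61.4% in IMF-0d. In BF-2d it was 96.9% to 99.1%, in BF-4d 98.4% to 99.3% and in BF-8d 98.1% to 98.6%. In IMF it was 53.1% to 80.9% on day 2, 54.0% to 70.0% on day 4 and 96.0% to 96.4% on day 8. The summed ligand level was 3.75 to 4.92 FPKM in BF-0d, 484 to 911 in BF-4d and 102 to 120.0 in IMF-8d.

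The balance between both ligands shifted towards EREG in both depots. The ratio of EREG to AREG within a library was 0.118 to 0.164 in BF-0d, 0.194 to 0.261 in BF-2d, 0.480 to 0.805 in BF-4d and 1.21 to 1.76 in BF-8d, with no overlap between successive days. BF-2d replicate 3, low in both transcripts, lay within the narrow BF-2d range of this ratio. In IMF the ratio was 0.0158 to 0.0356 on day 0, 0.0612 to 0.0970 on day 2, 0.0766 to 0.102 on day 4 and 0.184 to 0.426 on day 8. EREG was thus the leading ligand in 3 of 3 BF-8d libraries, and AREG in 3 of 3 libraries of each IMF group.

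HBEGF stayed a minor ligand by level. Its BF libraries held 1.06, 1.46 and 0.439 FPKM on day 2, 2.46, 3.48 and 8.54 on day 4 and 3.86, 9.71 and 6.36 on day 8. IMF-2d held 1.84, 1.23 and 1.25 FPKM. The IMF means went from 2.10 on day 0 down to 0.737 on day 4 and up to 2.83 FPKM on day 8, above the day 0 level in every library.

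NRG1 was read in all 24 libraries between 0.257 and 6.06 FPKM. Its BF libraries held 2.09, 1.46 and 1.20 FPKM on day 0, 0.438, 0.257 and 0.288 on day 2, 0.897, 1.38 and 6.06 on day 4 and 1.99, 4.45 and 2.68 on day 8. Its IMF libraries held 1.81, 2.23 and 1.57 FPKM on day 0, 0.757, 0.545 and 1.26 on day 2, 0.897, 0.728 and 0.438 on day 4 and 1.39, 1.06 and 1.12 on day 8. The lowest group was BF-2d, whose highest library lay just under the lowest of the next group in order, IMF-4d, and the other neighbours in the order of means overlapped.

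The remaining ligands were at the limit of the table. TGFA was listed at 0 in 22 of 24 libraries and reached 0.158 FPKM in BF-4d replicate 3. BTC was listed at 0 in 7 libraries and reached 0.816 and 0.462 FPKM in BF-8d replicates 2 and 3, against 0.0262 in replicate 1. Of the other family genes, EGF was listed at 0 in 21 libraries and NRG3 in 24, NRG2 reached at most 0.141 FPKM, and the receptor ERBB4 at most 0.162. EPGN and NRG4 were not analysed here. BTC, whose gene lies in the same chromosome 8 cluster, did not share the levels of EREG and AREG.

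Among the receptors, EGFR was called in no interval, and its means were higher on days 4 and 8 than on day 0 in both depots. Its BF libraries held 16.2, 17.8 and 15.8 FPKM on day 0, 27.5, 14.2 and 21.9 on day 2, 27.9, 33.8 and 31.9 on day 4 and 31.8, 28.2 and 29.5 on day 8. Its IMF libraries held 17.2, 15.9 and 14.8 FPKM on day 0, 19.1, 17.4 and 18.8 on day 2, 23.2, 23.0 and 22.6 on day 4 and 24.9, 30.8 and 24.7 on day 8. The highest and lowest of the 8 group means, BF-4d and IMF-0d, differed by a ratio of 1.96. Between depots the largest difference was on day 4, at −0.42 ± 0.15 (adjusted p = 0.0321), lower in IMF.

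ERBB2 was lowest in the BF groups after induction. Its BF libraries held 6.39, 7.11 and 7.29 FPKM on day 0, 4.08, 3.78 and 5.74 on day 2, 3.72, 3.23 and 3.16 on day 4 and 4.13, 3.32 and 4.14 on day 8. In IMF it ranged from 5.98 to 6.98 FPKM on day 0, 4.85 to 5.03 on day 2, 5.31 to 6.85 on day 4 and 4.41 to 5.55 on day 8. The ratio of its highest to its lowest group mean was 2.05, and all neighbours in the order of means overlapped.

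ERBB3 had the highest receptor readings, 36.1 to 111 FPKM. Its BF libraries held 36.1, 41.2 and 48.3 FPKM on day 0, 68.0, 111 and 62.8 on day 2, 72.7, 71.2 and 50.6 on day 4 and 45.5, 44.8 and 45.2 on day 8, and its IMF libraries lay between 39.8 and 72.2 FPKM. ERBB3 is known from epithelial and Schwann cells, whose markers were near 0 here: CDH1 was listed at 0 in 24 of 24 libraries, the epithelial sum was at most 0.271 FPKM and the Schwann cell sum at most 0.478 FPKM. The genes whose log2 values followed ERBB3 most closely over the 24 libraries were RPLP2 (Pearson r = 0.970), RPS16 (0.966) and NUDT3 (0.963), of which RPLP2 and RPS16 encode ribosomal proteins. In RefSeq the gene PA2G4 starts 956 bases beyond the end of ERBB3 on the same strand, and no row of the table could be paired with PA2G4 by symbol. Whether this row holds reads of the neighbouring gene was not tested, and its values are given as listed under ERBB3.

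**Figure D3:**
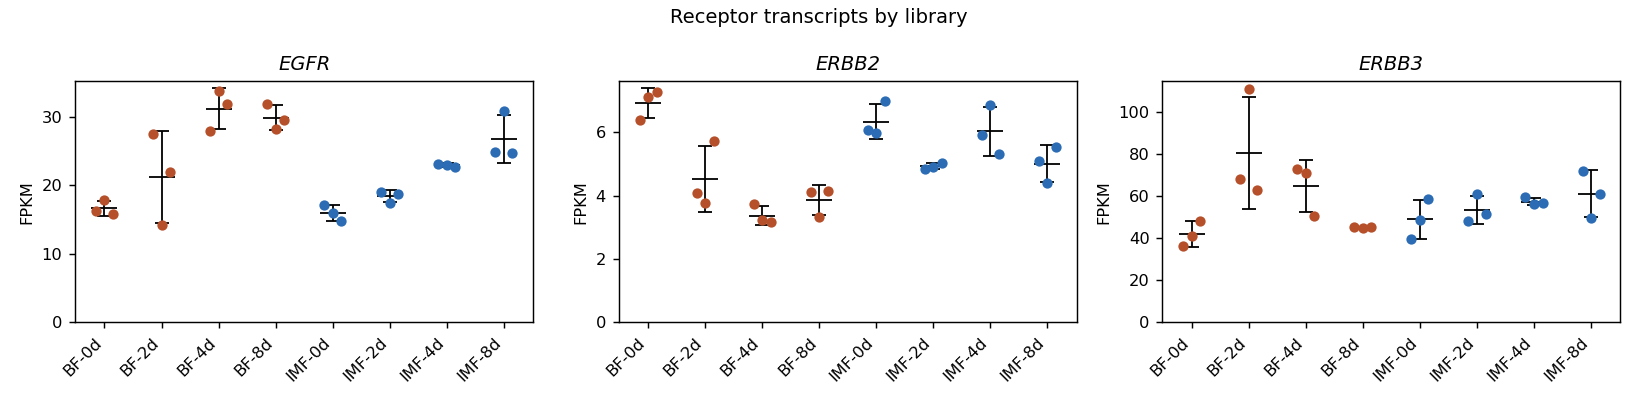
FPKM (vertical axes, each starting at 0) of EGFR, ERBB2 and ERBB3 in the 8 groups on the horizontal axis; points are libraries (BF brown, IMF blue) and bars the mean ± SD of 3 libraries. Group means of each receptor span a ratio of 1.93 to 2.05, against 222 for AREG and 2724 for EREG.

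Likeness of pattern was measured as Pearson's r of log2(FPKM + 1) over the 24 libraries among 10086 genes with a symbol and a group mean of at least 1 FPKM. These libraries form 8 groups, so r mostly reflects group means and is given as a description. EREG was closest to WNT5A (0.986), a Wnt ligand, FAM13A (0.984) and PDHX (0.983), and AREG ranked 19th (0.967). AREG was closest to BTG1 (0.982), LIF (0.981), a cytokine, and PLA2G4A (0.975), the cytosolic phospholipase that frees arachidonic acid. HBEGF was closest to SMOX (0.930), NLRP3 (0.920) and TNFSF9 (0.919), and NRG1 to RXFP4 (0.918), HSPA5 (0.90) and GTPBP2 (0.879). EGFR was closest to CHD6 (0.964) and ERBB2 to COMTD1 (0.955), PCBP4 (0.952), ARF5 (0.947). EREG and ERBB2 ran against each other, with r = −0.861.

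Genes of the pathway beyond the family were taken from 4 lists with 53 genes in all, of which 49 were in the table and passed the filter. The lists were chosen with earlier results of these data known, so their counts and shares are not independent evidence. 18 (36.7%) were called in at least 1 BF interval against 10.9% of all genes, 15 (30.6%) in an IMF interval against 7.82%, and 18 (36.7%) between depots on at least 1 day against 16.3%. From the compared libraries alone 2 were called in a BF interval, FOS and DUSP6, both from BF-0d to BF-2d. Among 7 genes of ligand shedding, 1 was called in a BF interval, RHBDF2, and 1 in an IMF interval, TIMP3, which also passed from BF-2d to BF-4d (1.49) when BF-2d replicate 3 was left out. ADAM17, the main protease that frees AREG, EREG and HBEGF, stood at 20.3 ± 2.04 FPKM in BF-0d, 26.9 ± 8.71 in BF-4d and 31.7 ± 3.63 in BF-8d (SD, n = 3). In IMF it stood at 15.1 ± 1.32 FPKM on day 0 and 20.0 ± 3.16 on day 8. IMF-4d differed from BF-4d by −0.73 ± 0.17 (adjusted p = 0.00147), under the fold threshold. TIMP3, an inhibitor of ADAM17, changed from IMF-4d to IMF-8d by −2.64 ± 0.32 (adjusted p = 2.83e-06), with means of 426 ± 19.6 and then 68.8 ± 19.2 FPKM. RHBDF2, which helps ADAM17 mature, rose from BF-4d to BF-8d by 1.34 ± 0.25 (adjusted p = 0.000845). Without BF-8d replicate 2, which held 16.2 FPKM against 4.86 and 8.11 in the other BF-8d libraries, the change was 0.93 and was not called.

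Of 17 tested genes of the adaptors and the Ras-ERK and PI3K cascade, 3 passed between BF-0d and BF-2d, all lower (17.6% of the list against 6.59% of all genes), and 1 from IMF-4d to IMF-8d, also lower (5.88% against 7.25%, so no more than the background). The adaptor GAB1 changed in both, by −1.77 ± 0.24 (adjusted p = 1.44e-05) and −1.94 ± 0.24 (adjusted p = 3.55e-06). MAPK3, which encodes ERK1, was 1.25 ± 0.15 higher in IMF-4d than in BF-4d (adjusted p = 1.27e-06).

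Feedback inhibitors are genes that the pathway itself is known to switch on and that damp it. Of 13 such genes, 6 rose and 0 fell from BF-0d to BF-2d, which was 46.2% of the list against 6.59% of all genes (median change 0.87 against −0.04). From IMF-4d to IMF-8d 5 rose and 1 fell (46.2% against 7.25%, median 0.72 against −0.07). Between BF-2d and BF-4d, the interval used for the choice of the family, 4 rose and 0 fell (30.8% against 3.35%, median 0.72 against 0.02). That count is given as a description. From IMF-0d to IMF-2d 2 rose and 0 fell (15.4% against 0.787%), of which SPRY2 was called in 0 of 6 fits that left out a compared library. From BF-4d to BF-8d 1 rose and 1 fell (15.4% against 2.93%). On day 4, 6 of 13 were lower and 0 higher in IMF than in BF (46.2% against 11.3%, median −0.89 against 0.07). DUSP4, a phosphatase that inactivates ERK in the nucleus, rose by 3.23 ± 0.45 (adjusted p = 2.23e-05) from BF-0d to BF-2d and by 2.52 ± 0.45 (adjusted p = 0.000229) from IMF-4d to IMF-8d. BF-2d replicate 3 stood apart here too, with 3.78 FPKM of DUSP4 against 33.8 and 22.4 in the other BF-2d libraries, and without it the DUSP4 rise was 4.09, that of SPRY4 1.66, and 7 of the 13 genes rose from BF-0d to BF-2d and 3 from BF-2d to BF-4d. ERRFI1, which binds EGFR and blocks its kinase, rose by 3.01 ± 0.28 (adjusted p = 1.24e-07) from IMF-4d to IMF-8d, from 12.4 ± 1.74 to 107 ± 17.3 FPKM. SPRY4 rose from BF-0d to BF-2d (1.26 ± 0.22, adjusted p = 0.000266), from BF-2d to BF-4d (1.44 ± 0.22, adjusted p = 0.00019) and from IMF-4d to IMF-8d (1.92 ± 0.22, adjusted p = 2.1e-06).

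Other members of that list moved differently. LRIG3 rose from BF-0d to BF-2d (2.30 ± 0.43, adjusted p = 0.000453, and 3.13 without BF-2d replicate 3, which held 3.94 FPKM against 33.0 and 21.9) and fell again from BF-4d to BF-8d (−2.26 ± 0.43, adjusted p = 0.00124), while in IMF it rose from day 4 to day 8 (2.21 ± 0.43, adjusted p = 0.000564). DUSP6, a cytoplasmic ERK phosphatase, rose on day 2 in both depots, by 1.44 ± 0.19 in BF (adjusted p = 1.3e-05) and 1.66 ± 0.19 in IMF (adjusted p = 1.51e-05). It changed from IMF-4d to IMF-8d by −1.04 ± 0.19 (adjusted p = 0.000292), the interval in which EREG and AREG rose. DUSP5 rose from BF-2d to BF-4d by 1.76 ± 0.34 (adjusted p = 0.00103), and LRIG1 from IMF-4d to IMF-8d by 1.24 ± 0.21 (adjusted p = 0.000171).

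Early response targets, transcription factors and other genes that ERK induces, split in direction. Of 12 tested, 5 rose and 0 fell from BF-0d to BF-2d (41.7% of the list against 6.59% of all genes, median 0.95 against −0.04). When BF-2d replicate 3 was left out 7 of 12 rose, ETV4 (1.81) and FOSL1 (1.35) among them. From IMF-4d to IMF-8d 3 rose and 3 fell (50% against 7.25%, median −0.44 against −0.07). IER3, a stress-induced gene, rose from IMF-4d to IMF-8d by 2.94 ± 0.42 (adjusted p = 2.21e-05) and differed between depots on day 4 by −4.83 ± 0.42, lower in IMF-4d (adjusted p = 2.99e-08). FOSL1 (1.75 ± 0.31, adjusted p = 0.000208) and ETV4 (2.17 ± 0.38, adjusted p = 0.000196) also rose from IMF-4d to IMF-8d. EGR1 (−1.65 ± 0.18, adjusted p = 1.13e-06) and FOS (−1.21 ± 0.16, adjusted p = 9.69e-06) fell over that interval. On day 2 EGR1 rose in both depots, by 1.60 ± 0.18 in BF (adjusted p = 2.44e-06) and 1.08 ± 0.18 in IMF (adjusted p = 0.000953), and FOS rose by 1.79 ± 0.16 in BF (adjusted p = 1.59e-07). ATF3 rose from BF-4d to BF-8d by 1.77 ± 0.41 (adjusted p = 0.00522), with overlapping libraries and in 2 of 6 fits that left out a compared library.

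**Figure D4:**
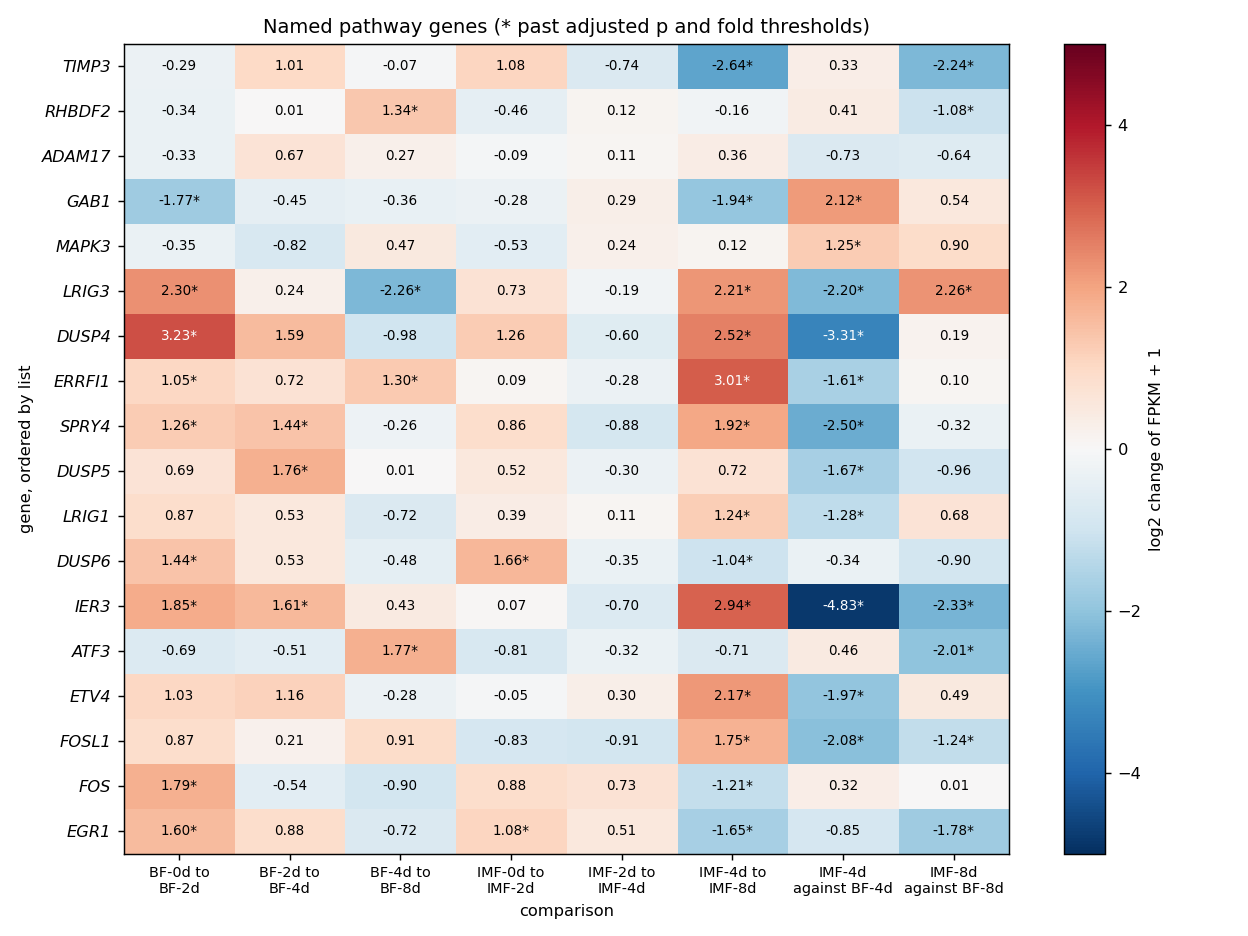
Change of log2(FPKM + 1) of 18 pathway genes (rows, in list order) in 8 comparisons (columns: 3 BF intervals, 3 IMF intervals and IMF minus BF on days 4 and 8); colour and printed value give the change, and an asterisk marks a call. In the column from IMF-4d to IMF-8d ERRFI1 and IER3 are among the strongest rises, while EGR1 and FOS are lower.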

How the data were processed

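RNA sequencing of 24 libraries from pig BF and IMF preadipocytes on days 0, 2, 4 and 8 was used, 3 libraries per group. Per the labels and methods, the authors aligned paired reads to Sscrofa11.1 with HISAT2 and quantified Ensembl genes with StringTie 1.3.4d. The deposited values were FPKM per gene, so the authors had divided out library size and transcript length before deposition. The paper reports sequencing statistics, which were not used here. DESeq2 1.6.3, listed among the tools of the submitters, needs counts and was not used here.

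Genes were matched to symbols by Ensembl ID. Of 25462 genes, 16135 with a summed FPKM above 1 were tested on log2(FPKM + 1). limma 3.58.1 in R 4.3.3 fitted 1 mean per group over all 24 libraries, with a trended and robust prior, for 6 intervals, 4 depot differences and 3 interactions. P-values were adjusted by Benjamini-Hochberg over all tested genes, and a call needed an adjusted p below 0.01 and a change of at least 1. In simulated data of BF-0d against BF-2d over 16135 genes, 95.5% of the changed genes were called at a log2 change of 1.5, 98.5% at 2 and 100% at 3, with 0 false calls. The simulation gave each gene normal noise of 1 spread shared by all groups, and changed only genes with a mean log2(FPKM + 1) above 1. The real BF-2d libraries were more scattered than those of BF-0d, so these rates do not carry over to them.

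The members and lists were chosen with earlier results of these data known. Named pathway genes were, per list, up to 6 called genes with the largest change, plus ADAM17, ERRFI1, DUSP6 and EGR1. Likeness named the 3 genes of highest Pearson r. Alternatives were another pseudocount, no filter, a stricter filter, only the compared libraries, median ratio scaling, quantile normalization, a replicate block and leaving out each library. RefSeq gave gene positions and promoter sequence. 11 listed genes had no row paired with their symbol and were not analysed here, and 2 named pathway genes are not reported here.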

Additional observations from a re-analysis of the deposited data

Results flagged for a closer look

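Outside the interval used for the choice of the family, the change differed between depots for 2 members, EREG and AREG. HBEGF differed only within that interval. Of the named pathway genes 14 differed, but most were named because they were called with large changes, so nothing is read from that count. Of all genes, 2.45%, 3.06% and 6.39% were called as interactions, in order of interval. Each value is an interaction, the log2 change in IMF minus that in BF, so its sign gives the direction of the difference and not the size of either change. From day 0 to day 2 it was negative for EREG (−3.57) and AREG (−5.06). From day 2 to day 4 it was negative for EREG (−3.89), AREG (−3.11) and HBEGF (−1.94), the interval given as a description. From day 4 to day 8 it was positive for EREG (3.57) and AREG (5.44).

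Among the inhibitors of the pathway, the value from day 4 to day 8 was positive for LRIG3 (4.47), DUSP4 (3.5), SPRY4 (2.18), LRIG1 (1.96) and ERRFI1 (1.71). LRIG3 changed by 2.21 in IMF and by −2.26 in BF. From day 2 to day 4 the value was negative for SPRY4 (−2.32) and DUSP5 (−2.06). Among early response targets, it was positive for IER3 (2.51) and ETV4 (2.46) and negative for ATF3 (−2.48) from day 4 to day 8, and positive for FOS (1.27) from day 2 to day 4. Among shedding genes it was negative from day 4 to day 8 for TIMP3 (−2.57), which changed by −2.64 in IMF and −0.07 in BF, and for RHBDF2 (−1.5), which changed by −0.16 and 1.34. In the cascade, GAB1 differed over the first interval (1.49) and the last (−1.59), and MAPK3 over the middle one (1.06). The first of these GAB1 values and that of DUSP5 lost their call in most of the alternatives tried.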

How the results depend on the processing

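Members called in at least 1 interval or comparison numbered 4 in BF, 3 in IMF, 3 between depots and 3 in an interaction, and pathway genes 18, 15 and 18. Of all genes, 10.9% were called in a BF interval, 7.82% in an IMF interval and 16.3% between depots. The interactions held 2.45%, 3.06% and 6.39% in order of interval. Without the interval from day 2 to day 4, which the choice of the family used, the member counts were 2 in BF and 2 in an interaction. With only the compared libraries the members called in a BF interval fell to 0 by limma, and the pathway genes called in BF to 2. Outside the interval used for the choice, that fit gave 5 of 8 members an unadjusted p below 0.05 between BF-0d and BF-2d. It gave 2 between BF-4d and BF-8d, and both counts are descriptions. The values of the changes were the same in that fit, and each rests on 6 libraries. No result reversed. Leaving out 1 library at a time gave 3 to 4 members in BF, 2 to 3 in IMF, 3 to 4 between depots and 2 to 4 in an interaction, and 16 to 22, 14 to 15 and 17 to 20 pathway genes. Without BF-2d replicate 3 the counts were 3 members in BF and 22 pathway genes.

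With a replicate block 3 members were called in BF, 3 in IMF, 3 between depots and 3 in an interaction, and 18, 15 and 18 pathway genes. Of the members, NRG1 from BF-2d to BF-4d was the 1 call lost. Same-numbered libraries did not vary together: 9 of 84 same-numbered pairs of libraries from different groups correlated above 0.1 (median 0.00136, range −0.454 to 0.457), so the numbers do not pair the samples. Other scalings moved the median change of all genes by at most 0.0774. HBEGF from day 2 to day 4 passed as an interaction in 6 of 12 fits that left out a compared library and AREG in 5 of 12. Of the pathway interactions, GAB1 from day 0 to day 2 lost its call in 20 of 31 alternatives (largest adjusted p = 0.0524), DUSP5 from day 2 to day 4 in 21 (0.0237), ATF3 in 11 (0.0487), IER3 in 9 (0.0156), RHBDF2 in 7 (0.0233), ERRFI1 in 7 (0.0163) and MAPK3 in 5 (0.0341).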
